A study of Mus musculus with 18 samples.

Results

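Histone genes of the H1, H2A, H2B, H3 and H4 families were followed across 18 arrays of mouse cells, with and without the phospholipase C inhibitor U73122. The genes were taken by name alone: all probes whose symbol begins with H2ac, H2bc, H3c, H4c or H1f followed by a number. This rule found 89 of the 45281 probes on the array, belonging to 59 genes, of which 41 gave a signal that could be tested. By class, 9 genes encode linker histones (H1), 16 encode H2A, 13 encode H2B, 9 encode H3 and 12 encode H4. Most lie in the large cluster on chromosome 13 (47 genes) or the smaller cluster on chromosome 3 (9 genes). The linker histone genes H1f10 and H1f8 on chromosome 6 and H1f7 on chromosome 15 match the name rule but lie outside both clusters, so the word clustered does not hold for them.

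According to the labels, the cells came from colon tumours of C57Bl/6 mice of 17 weeks with the genotype Fapbl-Cre;Apc2lox14/+;tet-KrasLSL-G12D/+, called FAK there. Mice numbered 1, 5 and 7 give the labels FAK1, FAK5 and FAK7, and the cells were selected with magnetic beads for CD110, the receptor of thrombopoietin. Every group was kept with doxycycline (Dox), controls included. Under each label, 3 arrays hold cells treated with 1 µM U73122 for 24 h and 3 hold untreated cells, which makes 6 groups of 3. The study compares transcript levels with and without the inhibitor. Each mouse number stands for 1 animal per label as far as the labels say, the promoter that drives Cre is given only by the allele's name, and nothing says that replicates were separate cultures. The p-values within and between labels therefore reflect only how far these arrays spread, and that spread may be technical. The p-values for treatment over the 3 labels reflect how closely the 3 label differences agree. They do not use the spread among arrays of a group.

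Several properties of the whole set of arrays bear on the histone values. Of 15 colon epithelium markers on the array, 7 could be tested and 2 were detected on 0 of the 18 arrays. The epithelial surface protein gene Epcam was detected on 0 arrays. Of the 7, 6 were called higher and 1 lower under FAK7 than under FAK5. The summed log2 signal of the list ran from 12.8 to 13.5 treated and 12.7 to 12.9 untreated under FAK7. Under FAK5 it ran from 8.92 to 9.02 and 8.90 to 9.04, and under FAK1 from 9.48 to 9.76 and 9.64 to 10.6. Brown fat genes were bright under FAK1, skeletal muscle genes under FAK5 and liver genes under FAK7, while the labels name colon tumours throughout. Groups are therefore named here by label and not by tissue. Sex chromosome transcripts divided the arrays too: Xist, which coats the inactive X chromosome, was present on 8 arrays and the Y-linked Eif2s3y on the other 10. For both FAK1 and FAK5, Xist was on all treated arrays and on untreated replicate 2, with Eif2s3y on untreated replicates 1 and 3. Every FAK7 array had Eif2s3y. The arrays of FAK1 and of FAK5 thus carry transcripts of both sexes, which goes against 1 mouse per label. Histone results under FAK1 and FAK5 are therefore also given without those 4 untreated arrays, a choice made after the data were seen. The number of arrays limits the precision of every value.

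Histones are the proteins on which DNA is wound. A nucleosome core is built of H2A, H2B, H3 and H4, and a linker histone, H1, sits where DNA enters and leaves it. The genes of the clusters are present in many near-identical copies without introns and are transcribed mainly during S phase, when new DNA has to be packed. Their messages normally end in a stem-loop in place of a poly(A) tail, and the stem-loop binding protein handles their processing and translation. Replacement variants such as H2AZ and H3.3 are encoded elsewhere by genes that are expressed throughout the cell cycle. Labelling kits that start from poly(A) record mainly tailed RNA, and the labels name such an amplification kit (Ambion MessageAmp) without giving its primer. How much of each histone message was in reach of this labelling is not given in the sources used here. Probes of near-identical copies may also share signal, since probe sequences were not used here, so values of single genes within a class are uncertain as measures of that copy alone.

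Promoters of 54 of the 59 genes were found in the RefSeq table of build GRCm38.p6, each with 250 bases before and 50 after the start of the gene. They make 55 promoters, since H2bc6 is listed at 2 places. Of these promoters, 6 are printed to show the sequence elements by which the classes differ: the H2A genes H2ac22, H2ac24 and H2ac7, which had the smallest p with treatment, and 1 gene each of H2B, H3 and H4 (H2bc12, H3c6 and H4c8), whose levels follow the labels in different orders. Capitals mark 3 motifs searched on both strands, which did not overlap here: CCAAT (or ATTGG), the box bound by the factor NF-Y; TATAAA (or TTTATA), the TATA box; and ATTTGCAT (or ATGCAAAT), the octamer bound by POU-domain factors. Sequences run 5′ to 3′ on the strand of the gene.
H2ac22, chr13:21787199-21787498, minus strand: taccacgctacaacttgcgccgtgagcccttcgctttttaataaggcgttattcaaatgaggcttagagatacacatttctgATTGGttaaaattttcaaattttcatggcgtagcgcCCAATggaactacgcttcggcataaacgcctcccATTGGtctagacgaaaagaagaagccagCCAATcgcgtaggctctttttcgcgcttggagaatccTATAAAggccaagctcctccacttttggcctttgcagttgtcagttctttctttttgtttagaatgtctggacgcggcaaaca
H2ac24, chr13:21833426-21833725, minus strand: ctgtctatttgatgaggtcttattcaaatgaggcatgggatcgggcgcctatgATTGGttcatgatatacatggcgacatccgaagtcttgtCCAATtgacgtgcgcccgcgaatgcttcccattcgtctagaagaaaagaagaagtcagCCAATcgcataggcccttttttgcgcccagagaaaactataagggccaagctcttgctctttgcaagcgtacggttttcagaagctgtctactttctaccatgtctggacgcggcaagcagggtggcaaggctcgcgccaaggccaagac
H2ac7, chr13:23574131-23574430, plus strand: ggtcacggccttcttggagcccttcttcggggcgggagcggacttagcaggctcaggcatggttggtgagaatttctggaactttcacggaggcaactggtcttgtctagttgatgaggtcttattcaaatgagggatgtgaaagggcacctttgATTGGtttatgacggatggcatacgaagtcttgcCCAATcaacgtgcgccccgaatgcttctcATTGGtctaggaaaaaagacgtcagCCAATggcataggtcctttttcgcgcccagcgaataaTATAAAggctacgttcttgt
H2bc12, chr13:22035571-22035870, plus strand: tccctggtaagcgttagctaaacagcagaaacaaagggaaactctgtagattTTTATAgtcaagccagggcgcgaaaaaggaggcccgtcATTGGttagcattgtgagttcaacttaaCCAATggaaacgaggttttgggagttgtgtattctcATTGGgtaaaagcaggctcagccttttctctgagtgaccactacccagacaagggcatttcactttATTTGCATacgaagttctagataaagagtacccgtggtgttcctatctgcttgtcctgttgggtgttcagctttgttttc
H3c6, chr13:23562336-23562635, minus strand: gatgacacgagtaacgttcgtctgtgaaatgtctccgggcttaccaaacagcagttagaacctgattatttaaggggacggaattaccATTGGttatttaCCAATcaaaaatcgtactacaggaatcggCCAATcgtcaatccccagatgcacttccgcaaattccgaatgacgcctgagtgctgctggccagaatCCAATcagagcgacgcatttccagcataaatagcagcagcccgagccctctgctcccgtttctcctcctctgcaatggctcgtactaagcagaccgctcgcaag
H4c8, chr13:23530794-23531093, plus strand: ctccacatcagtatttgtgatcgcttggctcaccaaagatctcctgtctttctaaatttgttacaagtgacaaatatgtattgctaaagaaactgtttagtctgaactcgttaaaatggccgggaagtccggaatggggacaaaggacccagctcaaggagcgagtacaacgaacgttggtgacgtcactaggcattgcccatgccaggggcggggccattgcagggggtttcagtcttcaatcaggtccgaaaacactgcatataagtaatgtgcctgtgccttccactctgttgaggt

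A CCAAT box was present in all promoters found for H2A (16 of 16), H2B (12 of 12) and H3 (7 of 7) and in 7 of 9 for H1, against 3 of 11 for H4. Of all 32851 promoters of the table, 37.4% held it. TATAAA was present, on either strand, in 11 of 16 H2A, 6 of 12 H2B, 2 of 7 H3 and 8 of 11 H4 promoters, against 13.6% of all. In H2bc7, H2bc12, H2bc15 and H2ac8 the only match lies on the other strand. There it is the TATAAA of the neighbouring gene (H2ac7, H2ac12, H2ac15 and H2bc8), so it does not count as a TATA box of their own. The octamer was found in 6 of 16 H2A promoters (37.5%) and 7 of 12 H2B promoters (58.3%), in 0 of the H1, H3 and H4 promoters, and in 1.74% of all. Some H2A and H2B genes start back to back, and a motif in their shared DNA was counted for both partners. The octamers of H2ac1, H2ac8 and H2ac12 are the same sites as those of H2bc1, H2bc8 and H2bc12. The H2A and H2B counts are thus not independent. The printed promoters show these patterns in part. H2ac22 and H2ac7 hold 4 CCAAT boxes and 1 TATAAA each, while H2ac24 holds 3 CCAAT boxes and 0 TATAAA. H2bc12 holds the octamer close to its start. H4c8 holds none of the 3 motifs, unlike the 8 of 11 H4 promoters with TATAAA. A match is a string of letters and was not tested as a binding site.

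A probe was called detected at a detection p-value under 0.05, and a gene could be tested when it was detected on all 3 arrays of at least 1 group. Levels are normalized log2 signals, in which a step of 1 is a doubling. By class, 3 of 9 H1, 14 of 16 H2A, 9 of 13 H2B, 7 of 9 H3 and 8 of 12 H4 genes could be tested, and 31 of the 41 were detected on all 18 arrays, against 60% of all genes tested. Of the 18 genes that could not, 10 were detected on no array: the linker histone genes H1f1, H1f3, H1f4, H1f7 and H1f8 and the core histone genes H2ac1, H2bc1, H2bc8, H3c3 and H3c8. H1f6 and H4c14 were detected on 1 array, H2bc18, H2bc3 and H4c2 on at most 2, H4c4 on 3, H2ac6 on 6 and H4c3 on 8. Several probes measured 22 of the 59 genes, and the brightest detected probe stood for a gene.

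**Figure D1:**
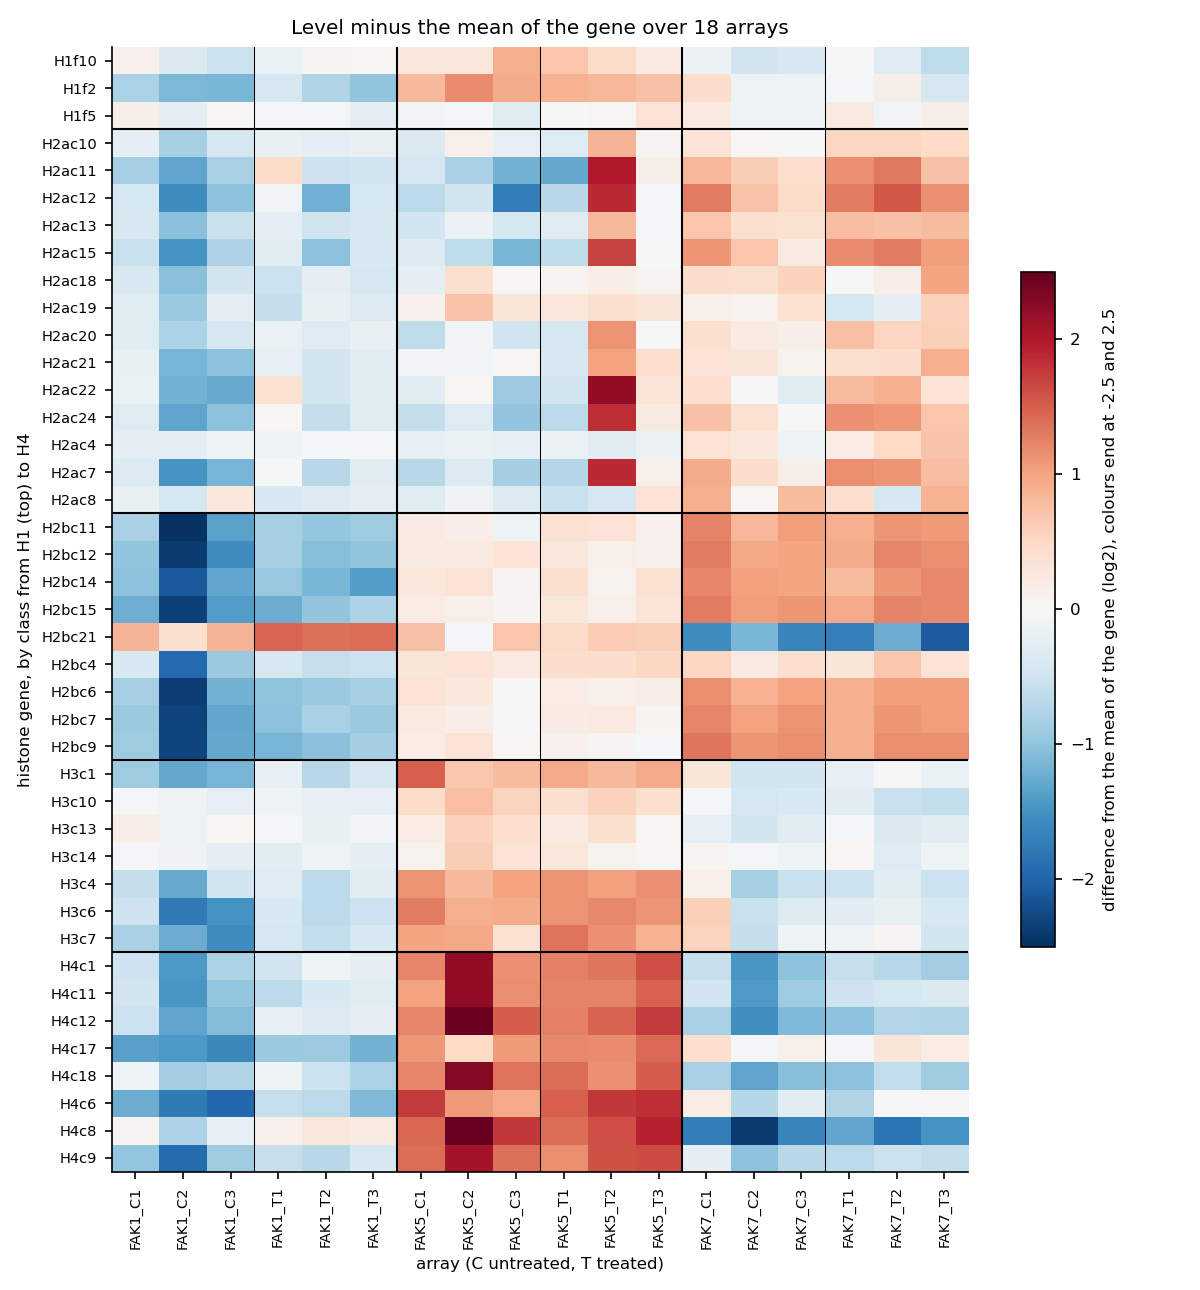
Levels of the 41 tested histone genes (rows, by class from H1 at the top to H4) on 18 arrays (columns, grouped by label, with C for untreated and T for treated), as the difference from the mean of the gene over all arrays (log2, colours end at -2.5 and 2.5). H4 and most H3 genes stand highest under FAK5 and most H2B genes under FAK7, and treated replicate 2 of FAK5 stands out in the H2A rows.

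With treatment, averaged over the 3 labels, histone levels were mostly higher, by amounts that did not pass the test. Of the 41 genes, 0 were called (limma, adjusted p under 0.05), where 0% of all 11406 genes were called. At an unadjusted p under 0.05 there were 11 of 41, against 5.39% of all genes, 10 of them encoding H2A and the other being H4c6. The difference, treated minus untreated, was above 0 for 35 of 41, against 50.7% of all genes. It was above 0 under every label for 13 of 41, of which 11 encode H2A, against 14.3% of all genes. The median difference was 0.41 for H2A, 0.20 for H2B, 0.15 for H3, 0.27 for H4 and 0.08 for H1, beside 0.00 for all genes. These arrays hold bulk RNA, in which fewer cells of a type and less RNA per cell cannot be told apart. Since copies of a class may share signal, the genes of a class are not independent measurements.

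Among H2A genes, H2ac22, H2ac24 and H2ac7, which encode core H2A on chromosome 13, had the smallest p. Under FAK1, H2ac22 was at 8.35, 7.34 and 7.26 on untreated replicates 1 to 3 and at 8.89, 8.06 and 8.23 on the treated ones. Under FAK5 it was at 8.24, 8.55 and 7.61 untreated and at 8.01, 10.73 and 8.84 treated. Under FAK7 it was at 8.94, 8.50 and 8.21 untreated and at 9.31, 9.41 and 8.86 treated. Treated and untreated arrays overlapped under every label, and treated replicate 2 of FAK5 stood far above the other arrays. Over the 3 labels the difference was 0.82 ± 0.12 (SE; a fold of 1.76), with an unadjusted p of 0.00046 and a limma adjusted p of 0.817. By label it was 0.74 ± 0.49, 1.06 ± 0.49 and 0.64 ± 0.49 under FAK1, FAK5 and FAK7 (SE; limma adjusted p = 0.631, 0.422 and 0.742). The SE over the labels comes from the spread of the label differences. The SE by label comes from the wider spread among arrays of a group.

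H2ac24 gave a similar picture. It was at 9.94, 8.93 and 9.23 untreated and 10.30, 9.67 and 9.96 treated under FAK1. Under FAK5 it was at 9.66, 9.94 and 9.26 untreated and 9.59, 12.10 and 10.47 treated. Under FAK7 it was at 10.99, 10.64 and 10.25 untreated and 11.40, 11.34 and 10.95 treated. Again no label separated its treated from its untreated arrays, and the spread was widest among the treated arrays of FAK5. The difference over the labels was 0.77 ± 0.13 for H2ac24 and 0.74 ± 0.12 for H2ac7 (SE; limma adjusted p = 0.817 for both). H2ac7 was measured by 2 probes, which ran in parallel: under FAK5 the brighter gave 9.36, 9.71 and 9.22 untreated and 9.34, 11.93 and 10.18 treated, and the dimmer gave 7.35, 7.85 and 7.11 untreated and 6.80, 9.91 and 8.22 treated.

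**Figure D2:**
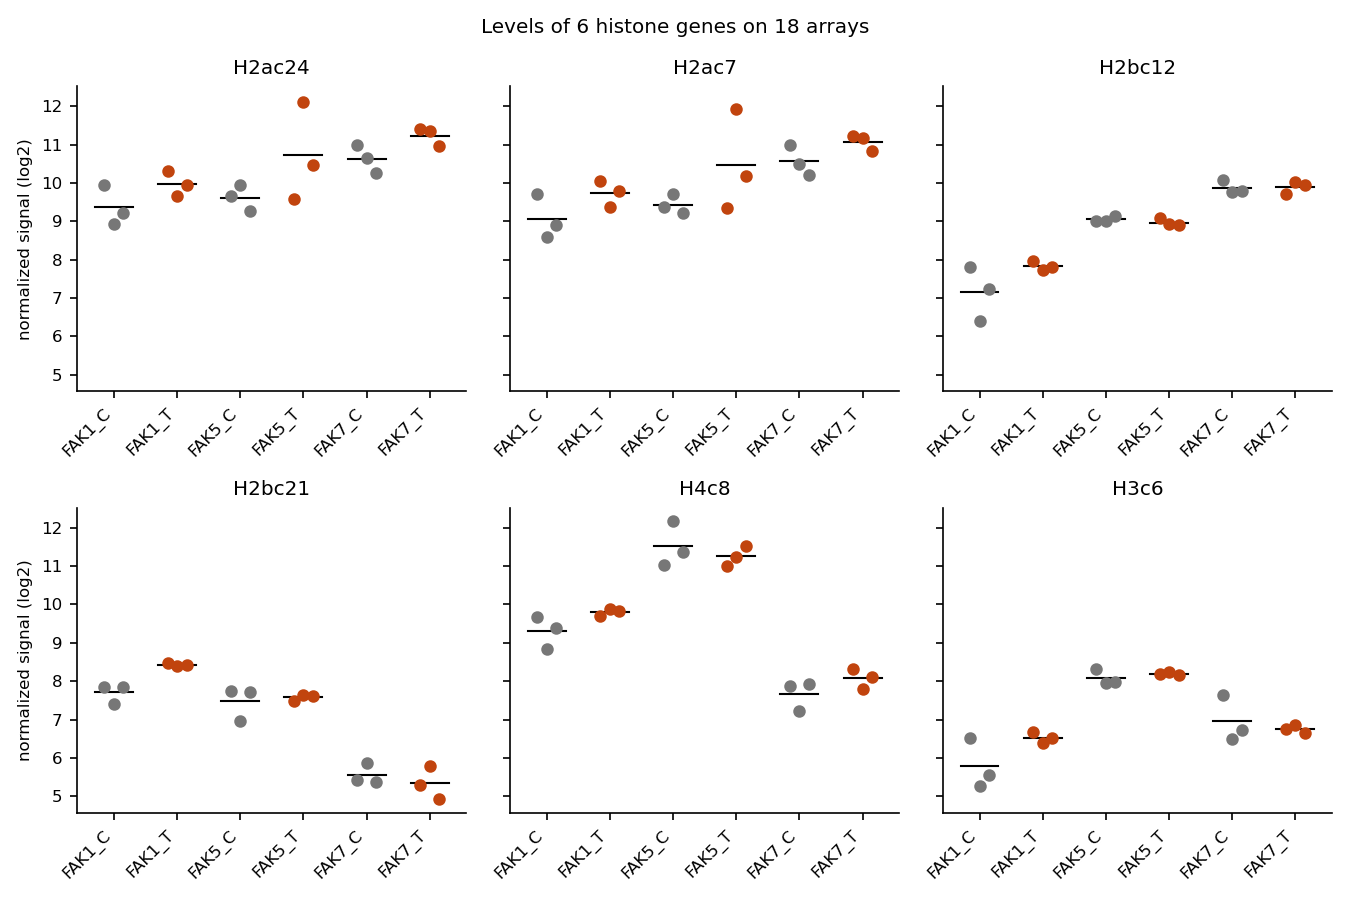
Normalized log2 signal of 6 histone genes on 18 arrays, by label and treatment (grey untreated, orange treated, bars the means of 3 arrays). H2ac24 and H2ac7 reach 12.10 and 11.93 on 1 treated array of FAK5, while H2bc12 on the same array, at 8.92, lies with the others of its group.

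Other H2A genes with an unadjusted p under 0.05 over the labels were H2ac11 (0.78 ± 0.15), H2ac12 (0.75 ± 0.19), H2ac15 (0.64 ± 0.15), H2ac20 (0.43 ± 0.10), H2ac21 (0.39 ± 0.12), H2ac10 (0.35 ± 0.08) and H2ac13 (0.35 ± 0.09), all with a limma adjusted p of 0.817. Of these, H2ac20 and H2ac21 lie in the chromosome 3 cluster. H2ac18 and H2ac19, also on chromosome 3, differed by 0.06 ± 0.10 and -0.06 ± 0.10, and H2ac4 and H2ac8, which were near background, by 0.15 ± 0.10 and -0.15 ± 0.11. The other classes gave smaller differences over the labels. Among H2B genes the smallest p belonged to H2bc4 (0.27 ± 0.12), H2bc11 (0.28 ± 0.14) and H2bc15 (0.25 ± 0.15). Among H4 genes it belonged to H4c6 (0.45 ± 0.18, unadjusted p = 0.0495), H4c17 (0.27 ± 0.14) and H4c11 (0.29 ± 0.16), with H4c8 at 0.21 ± 0.16. H3c7 differed by 0.33 ± 0.18, H3c14 by -0.14 ± 0.09, H3c10 by -0.13 ± 0.09 and H3c13 by -0.07 ± 0.10. The linker histone gene H1f2 differed by -0.01 ± 0.12, H1f5 by 0.10 ± 0.11 and H1f10 by 0.08 ± 0.10. The smallest limma adjusted p among the H2B, H3, H4 and H1 genes was 0.817.

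The order of the class medians was not the same under each label, as the plot of treatment differences by label shows. Under FAK1 the median difference was 0.59 for H2B, 0.58 for H4, 0.35 for H3 and 0.33 for H2A. Under FAK5 it was 0.57 for H2A but 0.06 for H2B, -0.09 for H3 and -0.15 for H4. Under FAK7 it was 0.39 for H2A, 0.27 for H4, -0.02 for H2B and -0.10 for H3. H2A was the only one of the 5 classes with a median above 0 under every label. Whether the treatment difference differs between labels was tested for each gene with a moderated F test. That test called 0 of 41 histone genes, against 0.377% of all genes, and at an unadjusted p under 0.05 it counted 1 of 41, against 12.1% of all genes. That gene was H2bc21 (limma adjusted p = 0.358), followed by H4c12 and H2bc12 (0.455 each) and H4c9 (0.472).

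**Figure D3:**
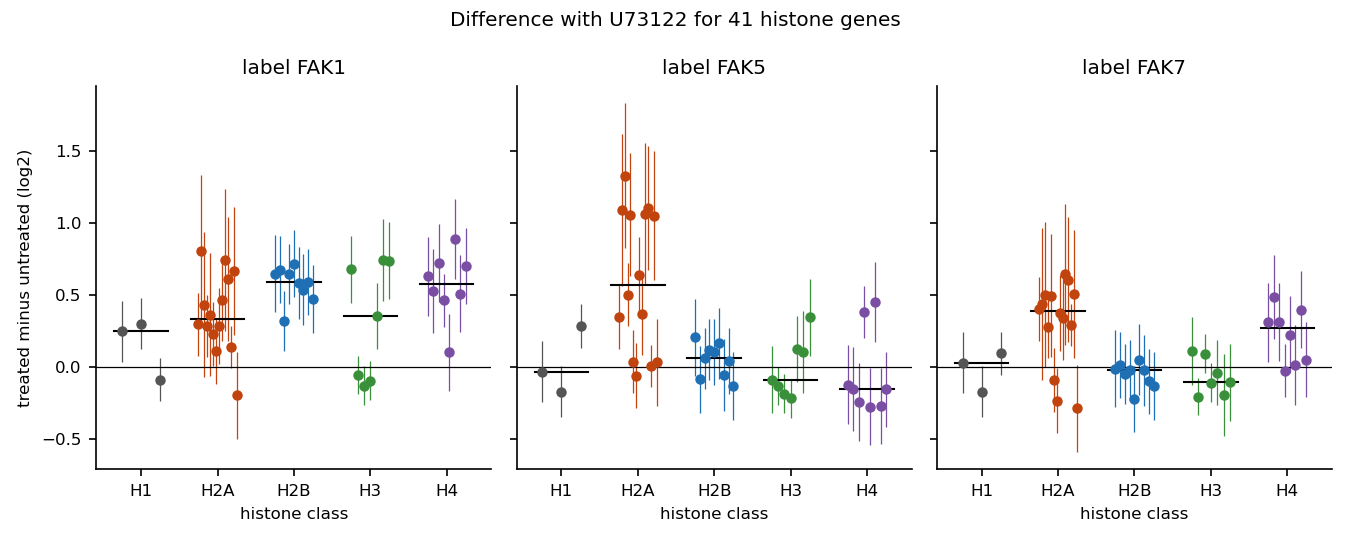
Treated minus untreated level (log2) of each of the 41 tested histone genes by class, under FAK1, FAK5 and FAK7 (points are genes, thin lines 1 SE, bars class medians). H2B and H4 medians lie at 0.59 and 0.58 under FAK1 and at 0.06 and -0.15 under FAK5, while the H2A median lies between 0.33 and 0.57.

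Under FAK1, 0 of 41 histone genes were called, against 0.885% of all genes, and 15 had an unadjusted p under 0.05, against 11.5%. Of these 15, 7 encode H2B, 5 encode H4 and 3 encode H3. The difference was above 0 for 36 of 41, against 47.8% of all genes. The 3 treated arrays stood above the 3 untreated ones for 10 of 41 genes, against 7.31% of all genes: the H4 genes H4c1, H4c6, H4c8, H4c9, H4c12 and H4c17, the H3 genes H3c1 and H3c7, H2ac11 and H2bc21. They stood below for 0, against 8.14%. H4c6 was at 5.48, 4.95 and 4.76 untreated and at 6.15, 6.06 and 5.63 treated, a difference of 0.89 ± 0.28 (SE; limma adjusted p = 0.174). H2bc21 was at 7.86, 7.40 and 7.86 untreated and at 8.47, 8.39 and 8.41 treated, a difference of 0.72 ± 0.23 (limma adjusted p = 0.189). In both genes all treated arrays lay above all untreated ones. The protein of H2bc21 is known in mouse olfactory neurons as a variant form of H2B.

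H2bc12 was at 7.82, 6.41 and 7.24 untreated and at 7.96, 7.73 and 7.81 treated under FAK1 (0.67 ± 0.23, SE; limma adjusted p = 0.229). H2bc15 was at 7.79, 6.67 and 7.60 untreated and at 7.76, 8.005 and 8.22 treated (0.64 ± 0.21; limma adjusted p = 0.195). In these H2B genes the treated arrays were close together, and untreated replicate 2 was the lowest of the 6. On untreated arrays of FAK1, H4c17 was in no case well above background, and it was at least 1.20-fold higher on the treated ones (limma adjusted p = 0.326).

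The FAK1 values moved with the untreated arrays counted. All 9 H2B genes lay below their group mean on untreated replicate 2, with a median of -0.81, and all 9 above it on replicate 1, with a median of 0.60. Without untreated replicate 2 the median difference over the 41 genes was 0.18 in place of 0.47. Without untreated replicate 1 it was 0.77, and 5 genes rose: H2bc12, H2bc4, H2bc11, H2bc7 and H3c6, with limma adjusted p between 0.018 and 0.0411. The share of all genes called without that array is not given here, so this count cannot be set against other genes. Without the untreated arrays that carry Eif2s3y, replicate 2 was the only untreated array left, and 13 histone genes rose (8 H2B, 4 H4 and 1 H3), where 371 of all genes rose and 254 fell. Skeletal muscle markers moved on the same arrays: 9 of 13 rose under FAK1, their summed log2 signal ran from 15.2 to 16.8 treated and from 9.31 to 15.0 untreated, and relative to their group mean they had medians of 3.27 on untreated replicate 2 and -2.68 on replicate 1. The part of these transcripts in the histone values was not tested.

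Under FAK5, 0 of 41 histone genes were called, against 0.0701% of all genes. At an unadjusted p under 0.05 there were 7 of 41, against 11.3%, and all 7 encode H2A: H2ac7, H2ac12, H2ac13, H2ac15, H2ac20, H2ac22 and H2ac24. H2ac12 was at 7.58, 7.78 and 6.53 untreated and at 7.55, 10.12 and 8.20 treated, a difference of 1.33 ± 0.50 (SE; limma adjusted p = 0.316). H2ac15 was at 8.01, 7.70 and 7.20 untreated and at 7.71, 10.03 and 8.34 treated, a difference of 1.06 ± 0.42 (limma adjusted p = 0.347). H2ac20 was at 10.32, 10.90 and 10.47 untreated and at 10.54, 12.08 and 10.97 treated (0.64 ± 0.26; limma adjusted p = 0.36). Its second probe, also detected on all 18 arrays, had no bright array there, with 8.61, 9.17 and 8.75 untreated and 8.66, 8.70 and 8.57 treated (difference -0.20). By the brighter probe of each of these genes, treated replicate 2 was by far the brightest and treated replicate 1 lay within the untreated range. The difference was above 0 for 25 of 41 genes, against 52.2% of all. The 3 treated arrays stood above the 3 untreated ones for 3 of 41 genes (H1f5, H2bc4 and H4c17), against 6.54%, and below for 0, against 5.98%. On untreated arrays of FAK5, H1f5 was in no case well above background, and it was at least 1.20-fold higher on the treated ones (limma adjusted p = 0.513).

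Treated replicate 2 of FAK5 carried this pattern. On it, 12 of 14 H2A genes lay above their group mean, by a median of 0.77 and at most 1.71, while the medians of H2B, H3 and H4 were -0.03, 0.03 and -0.04. On treated replicate 1, the H2A median relative to the group mean was -0.70 and 1 of 14 genes lay above. Without replicate 2 the H2A median under FAK5 was 0.19, in place of 0.57, and 0 of 14 H2A genes had an unadjusted p under 0.05. Over the 3 labels, H2ac22 then differed by 0.56 and the H2A median was 0.28. The 13 tested mitosis genes had a median of 0.44 above their group mean on that array and of -0.44 on treated replicate 1. Their summed log2 signal ran from 11.0 to 11.6 on the treated and from 10.6 to 11.2 on the untreated arrays of FAK5. Myeloid markers stood 0.35 above their group mean on treated replicate 2. The part of these genes in the H2A values was not tested.

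**Figure D4:**
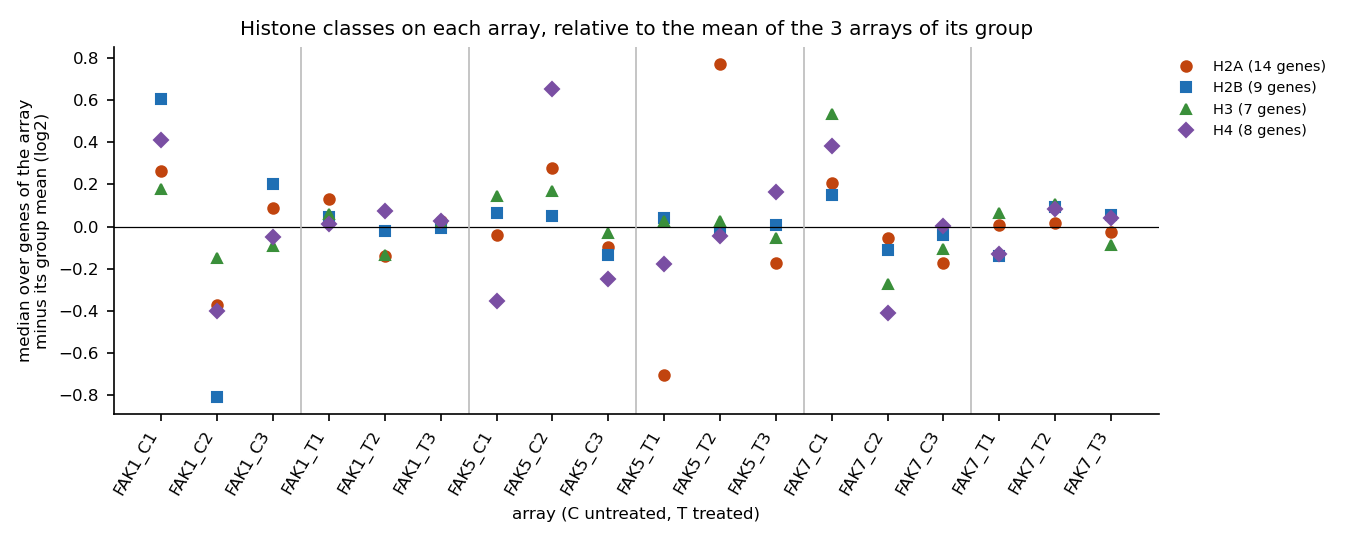
Median over the genes of a class of the level on an array minus the mean of its group of 3 arrays (log2), for H2A, H2B, H3 and H4 on 18 arrays (C untreated, T treated, vertical lines between groups). H2A lies at 0.77 on treated replicate 2 of FAK5 and H2B at -0.81 on untreated replicate 2 of FAK1, each with other classes nearer 0.

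Under FAK7, 0 of 41 were called, against 0.57% of all genes, and 0 had an unadjusted p under 0.05, against 10.3%. The difference was above 0 for 24 of 41, against 50.8%. The 3 treated arrays stood above the 3 untreated ones for 4 of 41 genes, all H2A (H2ac10, H2ac13, H2ac20 and H2ac21). This was near the share among all genes, 10.3%. The treated arrays stood below for 0, against 9.47%. By the second probes of H2ac13 and H2ac20, treated and untreated arrays overlapped (differences 0.60 and -0.06). Markers of other cells moved with these arrays: 17 of 18 myeloid markers were higher with treatment under FAK7 (median 0.82), of which Marco, Aif1 and C1qb rose, and their summed log2 signal ran from 13.6 to 14.6 treated and from 13.2 to 13.4 untreated. All 7 tested lymphocyte markers were higher (median 0.40, 0 called), and of 9 erythroid markers 6 were higher and Hbb-bs and Hbb-bt rose. The part of these transcripts in the H2A values was not tested. H2ac10 was at 11.64, 11.34 and 11.31 untreated and at 11.85, 11.84 and 11.82 treated, a difference of 0.40 ± 0.22 (SE; limma adjusted p = 0.565). By this probe the treated arrays were nearly equal and all above the untreated ones. By its second probe they overlapped, at 9.67, 9.37 and 8.93 untreated and 10.03, 10.13 and 9.63 treated (difference 0.60). H2ac4, near background, had the smallest p, at 5.24, 5.13 and 4.74 untreated and 5.05, 5.36 and 5.58 treated (0.29 ± 0.14; limma adjusted p = 0.51). H4c11 was at 7.56, 6.61 and 7.15 untreated and at 7.52, 7.59 and 7.66 treated (0.49 ± 0.29; limma adjusted p = 0.616), and H3c10 at 8.97, 8.58 and 8.62 untreated and 8.74, 8.44 and 8.37 treated (-0.20 ± 0.13; limma adjusted p = 0.655). Untreated replicate 1 of FAK7 was high in H3 (0.54 above the group mean, 7 of 7 genes) and H4 (0.38 above, 8 of 8), and its mitosis genes stood 0.45 above their group mean. Without that array the median over the 41 genes was 0.21 in place of 0.05 and 0 genes were called.

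With the spread pooled over the groups, the H2A genes also varied most between arrays of one group. The SD within groups had a median of 0.40 for H2A, 0.37 for H4, 0.31 for H2B, 0.29 for H3 and 0.24 for H1, beside 0.23 for all genes. It was 0.75 for H2ac11, 0.72 for H2ac12 and 0.70 for H2ac22, at percentiles 98.6, 98.4 and 98.3 of all genes tested. The H3 genes H3c10, H3c14 and H3c13 lay at 0.15 to 0.16, at percentiles 12.1 to 16.6. Among the treated arrays of FAK5, which include the bright replicate 2, the SD was 1.64 for H2ac11, 1.33 for H2ac12 and 1.39 for H2ac22. In the other groups the SDs of these H2A genes ran from 0.20 to 0.68. The order of the classes without the treated arrays of FAK5 was not computed.

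Of the genes found in the promoter table, 6 pairs start back to back within 500 bases, all of an H2A and an H2B gene, and in 4 pairs both partners could be tested. The starts of H2ac7 and H2bc7 lie 174 bases apart, so most of the printed H2ac7 promoter is also that of H2bc7, read from the other strand. Under FAK5 the difference with treatment was 1.05 for H2ac7 and 0.04 for H2bc7. For H2ac12 and H2bc12, 178 bases apart, it was 1.33 and -0.08. For H2ac15 and H2bc15, 164 bases apart, it was 1.06 and 0.12, and for H2ac11 and H2bc11, 249 bases apart, 1.09 and 0.21. Under FAK1 the same pairs gave 0.67 and 0.59, 0.43 and 0.67, 0.36 and 0.64, and 0.80 and 0.65, with the H2A gene first. In each pair the H2A gene had the larger value under FAK5 and FAK7, and under FAK1 in 2 of the 4. The difference between partners was not tested.

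Between labels many histone genes differed, and the order of the labels was not the same in each class. For H2A the differences between FAK5 and the other labels were of the size seen with treatment, with medians of -0.50 for FAK1 and 0.60 for FAK7 against 0.57 with treatment under FAK5. These contrasts compare 6 arrays of one label with 6 of another, treated and untreated weighted alike. Each label names 1 mouse, although the sex transcripts go against a single animal under FAK1 and FAK5. Tissue markers also differed by label. For FAK7 against FAK5, skeletal muscle markers had a median of -9.66 and liver markers of 8.06. Brown fat markers had a median of 3.15 for FAK1 against FAK5. Label, mouse number and tissue content therefore cannot be told apart. Each pair of contrasts shares the arrays of 1 label. Against FAK5, 31 of 41 histone genes were called under FAK1, 1 higher and 30 lower, where 60.7% of all genes were called (32.9% higher and 27.8% lower). Between FAK7 and FAK5, 34 were called, 16 higher and 18 lower under FAK7, where 80.5% of all genes were called (40% higher and 40.5% lower). Between FAK7 and FAK1, 33 were called, 28 higher and 5 lower under FAK7, where 75.7% of all genes were called (35.3% higher and 40.3% lower). A gene detected under 1 label alone could enter the test only through that label and had to differ. Among the 31 genes detected on all arrays, 25 were called in each contrast (80.6%), against 67.6%, 79.6% and 76.6% of all genes so detected, so the share called was near that of other genes in the last 2 contrasts.

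H4 genes were highest under FAK5. All 8 were called lower under FAK1 and under FAK7, with medians of -2.17 and -2.25. H4c8 ran from 11.01 to 12.16 (median 11.30) under FAK5, from 8.83 to 9.89 (median 9.69) under FAK1 and from 7.22 to 8.31 (median 7.90) under FAK7. The 3 ranges did not overlap, and FAK7 was the lowest. H4c8 was 11.4-fold lower under FAK7 than under FAK5 (difference -3.51 ± 0.19, SE; limma adjusted p = 7.16e-12) and 3.55-fold lower under FAK1. H4c6 ran from 7.67 to 8.58 (median 8.35) under FAK5, from 4.76 to 6.15 (median 5.56) under FAK1 and from 5.98 to 6.91 (median 6.59) under FAK7. Here FAK1 was the lowest label and overlapped FAK7 in part, and the difference from FAK5 was -2.70 ± 0.20 under FAK1 (limma adjusted p = 1.46e-09). H4c17, H4c9, H4c12 and H4c18 were also lower than under FAK5, by fitted differences of -2.31, -2.45, -2.23 and -2.01 under FAK1 and -0.91, -2.17, -2.60 and -2.44 under FAK7. Between FAK7 and FAK1 the H4 genes split, with H4c6 and H4c17 higher and H4c8 and H4c18 lower under FAK7. The second probe of H4c18 went the other way (5.30 ± 0.21 under FAK1 and 6.37 ± 0.31 under FAK7; SD, n = 6), and without treated replicate 2 of FAK5 only 1 H4 gene was called lower.

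H3 genes followed H4. All 7 were called lower under FAK1 than under FAK5 (median -1.64) and lower under FAK7 than under FAK5 (median -1.07). H3c6 ran from 7.96 to 8.32 (median 8.16) under FAK5, from 5.27 to 6.66 (median 6.46) under FAK1 and from 6.50 to 7.64 (median 6.74) under FAK7. The FAK5 arrays lay above all others, while FAK1 and FAK7 overlapped. The differences from FAK5 were -1.98 ± 0.20 under FAK1 (limma adjusted p = 1.16e-07) and -1.28 ± 0.20 under FAK7 (1.32e-05). H3c10, H3c13 and H3c14 differed least, by -0.67, -0.34 and -0.40 under FAK1. The linker histone gene H1f2 ran from 12.83 to 13.29 (median 12.94) under FAK5, from 10.96 to 11.68 (median 11.21) under FAK1 and from 11.68 to 12.54 (median 12.01) under FAK7. It was 3.38-fold lower under FAK1 (-1.76 ± 0.13; limma adjusted p = 1.26e-09) and 1.88-fold lower under FAK7 than under FAK5. The FAK5 arrays lay above all others, and both of its probes gave this order. H1f10 was lower than under FAK5 in the same contrasts (-0.61 and -0.80), and H1f5 was not called in any.

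**Figure D5:**
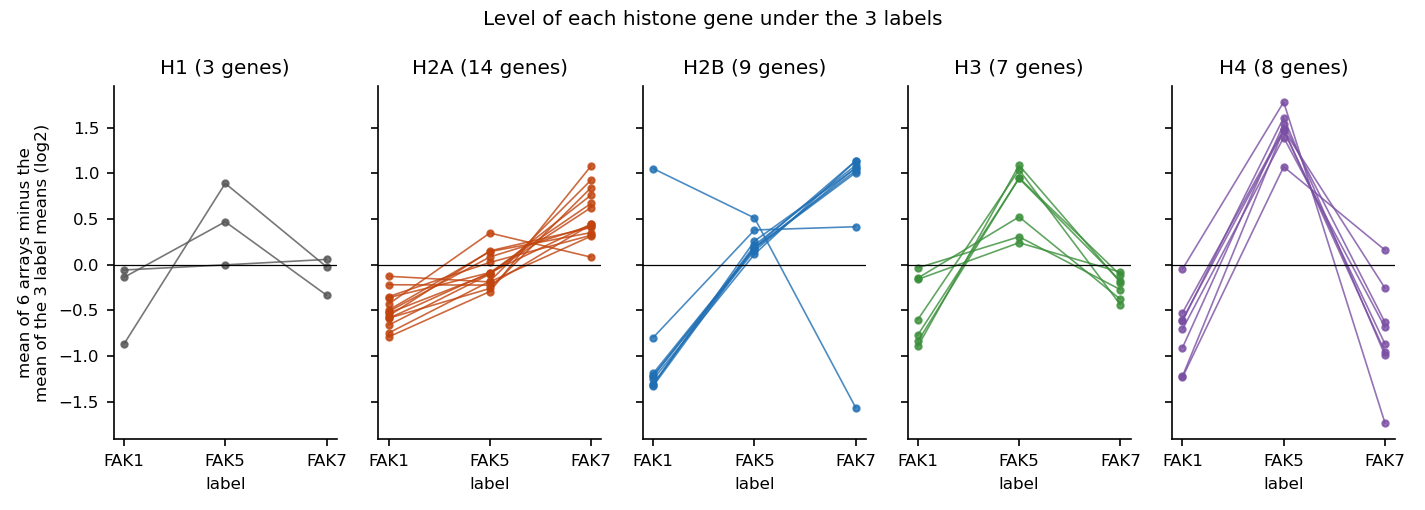
Mean level of each tested histone gene over the 6 arrays of a label, minus the mean of its 3 label means (log2), by class. Lines join the values of 1 gene: H4 and H3 genes peak under FAK5, all H2B genes but H2bc21 (by its brighter probe) are lowest under FAK1, and 13 of 14 H2A genes are highest under FAK7.

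H2B genes had another order, with FAK7 highest and FAK1 lowest. Of 9, 8 were called lower under FAK1 than under FAK5 (median over the 9 of -1.37) and 7 higher under FAK7 than under FAK5 (median 0.85). H2bc15 ran from 9.94 to 10.30 (median 10.16) under FAK7, from 9.06 to 9.32 (median 9.16) under FAK5 and from 6.67 to 8.22 (median 7.77) under FAK1. The labels did not overlap. It was 5.52-fold higher under FAK7 than under FAK1 (2.46 ± 0.15, SE; limma adjusted p = 5.59e-11), and H2bc12, H2bc14, H2bc7 and H2bc9 differed by 2.39, 2.37, 2.28 and 2.39 in that contrast. By its brighter probe, H2bc21 on chromosome 3 ran against its class: from 7.40 to 8.47 (median 8.12) under FAK1, from 6.96 to 7.74 (median 7.62) under FAK5 and from 4.93 to 5.87 (median 5.40) under FAK7. It was 6.14-fold lower under FAK7 than under FAK1 (-2.62 ± 0.16; limma adjusted p = 9.23e-11), with FAK7 below all other arrays. Its second probe gave the opposite sign in this contrast (0.63) and was lowest under FAK1, as the other H2B genes were.

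Of the 14 H2A genes, 13 were highest under FAK7. All 14 were called higher under FAK7 than under FAK1 (median 0.95) and 9 higher than under FAK5 (median 0.60), while 5 were lower under FAK1 than under FAK5 (H2ac10, H2ac13, H2ac18, H2ac19 and H2ac21; median over the 14 of -0.50). H2ac12 ran from 8.73 to 9.81 (median 9.47) under FAK7, from 6.53 to 10.12 (median 7.68) under FAK5 and from 6.71 to 8.18 (median 7.51) under FAK1. FAK7 lay above FAK1, and FAK5 spanned both through 1 bright array, treated replicate 2. Without that array the H2A median between FAK1 and FAK5 was -0.20 with 3 genes lower, and between FAK7 and FAK5 it was 0.68 with 12 genes higher. The shares of all genes called without that array are not given here. Under FAK5, H2ac4 was in no case well above background, and it was at least 1.29-fold higher under FAK7 (limma adjusted p = 0.000226).

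Probes of 1 gene did not always give the same order of labels or the same direction with treatment. Of 17 tested genes with several detected probes, all probes shared the sign of the treatment difference in 14 under FAK1, 8 under FAK5 and 13 under FAK7. For the labels they shared it in 15 between FAK1 and FAK5, 13 between FAK7 and FAK5 and 9 between FAK7 and FAK1. All probes of the H2A genes H2ac7, H2ac10, H2ac12 and H2ac13 were higher with treatment under every label, while those of H2ac18 and H2ac20 were not. For H2bc4 the brighter probe gave 11.54 ± 0.10 under FAK5 and 11.57 ± 0.17 under FAK7 (SD, n = 6), and the other gave 8.51 ± 0.16 and 4.90 ± 0.32. For H2bc6, one probe was detected on 0 of 6 arrays of FAK7 and 6 of FAK5, while the other probes were brighter under FAK7 (11.65 ± 0.11 and 11.01 ± 0.15) than under FAK5 (10.82 ± 0.12 and 9.84 ± 0.15). For H2bc21 the brighter probe was at 8.06 ± 0.43 under FAK1 and 7.52 ± 0.29 under FAK5, and the dimmer one was at 5.60 ± 0.51 and 7.39 ± 0.20, and under FAK7 they were at 5.45 ± 0.34 and 6.23 ± 0.38. The place of FAK1 against both other labels thus depends on the probe, while both probes were lower under FAK7 than under FAK5. For H2ac18 one probe was highest under FAK1 (5.49 ± 0.27) and detected on 0 arrays of FAK5, while the others were lowest under FAK1. With every probe on its own, 32, 37 and 34 histone genes had a called probe in the contrasts of FAK1 with FAK5, FAK7 with FAK5 and FAK7 with FAK1. The matching shares of all genes are not given here.

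Genes that work with histones were listed beside them. Of 9 tested replication-independent histone genes, 7 were higher with treatment over the labels and 0 were called, with a median of 0.06; Cenpa, the H3 variant of centromeres, had the smallest p (0.40 ± 0.09, SE; limma adjusted p = 0.817), followed by H2az2 (0.26) and the H3.3 gene H3f3b (-0.16). Of 18 tested genes of histone mRNA processing, 9 were higher and 0 called (median 0.00), among them Lsm10 of the U7 particle (0.27), and the gene of the stem-loop binding protein, Slbp, was detected on 0 arrays. Of 19 histone chaperones, 11 were higher (median 0.04), with Supt16 of the FACT complex at 0.45. Of 35 genes of S phase and DNA replication, 23 were higher (median 0.03), for example Tk1 (0.29), Mcm5 (0.30) and Rrm1 (0.19). Of 13 mitosis genes, 13 were higher, with 0 called (median 0.56; 0.31, 0.69 and 0.56 under FAK1, FAK5 and FAK7), led by Prc1 (0.78), Top2a (0.58) and Cdk1 (0.62). For these lists 0 members passed over the labels, where 0% of all genes were called.

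Across labels, the 9 replication-independent genes had medians of -0.23 for FAK1 against FAK5, 0.34 for FAK7 against FAK5 and 0.09 for FAK7 against FAK1. H3f3a was lower under FAK1 (-0.39) and FAK7 (-0.78) than under FAK5, while Cenpa was higher (2.00 and 1.47). H2az1 was at 10.19 ± 0.12, 10.16 ± 0.17 and 10.49 ± 0.29 under FAK1, FAK5 and FAK7 (SD, n = 6), called higher under FAK7 than under FAK5 (limma adjusted p = 0.0167). S phase genes had medians of 0.12 for FAK1 against FAK5 and 0.91 for FAK7 against FAK5, with 24 of 35 called higher in the latter. Mitosis genes had medians of -0.10 and 0.49. H4 and H3 genes, in contrast, had medians of -2.25 and -1.07 for FAK7 against FAK5, and the difference between the lists was not tested.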

How the data were processed

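Each of 18 RNA samples was hybridised to 1 Illumina mouse bead array. The deposited table holds a background-subtracted intensity for each of 45281 probes, with 23.2% to 30.9% of values below 0 on an array, and, per the file headers, a detection p-value for each. The deposited series matrix, used as an alternative, holds intensity values on a linear scale, whose equal distributions on all arrays are those of quantile normalization. The software used by the authors is not given in the sources used here.

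Signals were background corrected, quantile normalized and taken to log2 with neqc of limma 3.58.1 (R 4.3.3, offset 16). A probe was kept if some group had it detected on each of its 3 arrays (p under 0.05; 21193 probes, of which 3210 without a usable symbol were left out), and the brightest stood for each of 11406 genes. Probes were named through the platform annotation; 18 probes with several symbols were not named. Treatment over the labels was fitted with limma on 6 profiles, the means of the 3 arrays of each group, with label as a term. All other contrasts came from 1 limma fit of 18 arrays with a mean per group. All p-values are two-sided and were adjusted over all genes by Benjamini-Hochberg, with 0.05 as threshold. A gene detected on no array of a side was given as "at least" a fold, with the dim side set per array to at least the lowest detected signal. Alternatives were no background correction, the series matrix values, a stricter detection filter (p under 0.01 on all arrays), every probe on its own, a replicate block, single arrays with label as a block, the arrays of 1 label alone, treated or untreated arrays alone, and leaving out each array, each label or, added after the data were seen, the 4 untreated arrays with Eif2s3y. The computations were tested on simulated data.

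The histone genes and the gene lists were chosen with earlier results of these data known. Genes were named by a rule: H2ac22, H2ac24 and H2ac7; in each class the 3 genes of smallest p over the labels and the brightest; the 4 of smallest p in each other contrast; up to 3 of each functional list. Genes outside it were named after their values were seen. Lists of lymphocyte, erythroid, fibroblast and endothelial markers were also computed; their medians with treatment over the labels were 0.19, 0.20, 0.35 and -0.08, those of brown fat, liver, colon epithelium, myeloid and skeletal muscle markers were -0.04, 0.03, 0.01, 0.38 and 1.51, with 0 members called. Pairing of samples by replicate number was not established. Correlations of same-numbered treated and untreated arrays, relative to their group means, ran from -0.04 to 0.28. The closest untreated array had the same number for every treated array of FAK5, for replicates 2 and 3 of FAK1 and for replicate 1 of FAK7. It had another number for the rest. Whether this goes beyond chance was not tested.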

Additional observations from a re-analysis of the deposited data

How the results depend on the processing

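Counts of called histone genes were recomputed under 205 alternatives, and 201 stayed within 1.5 times the count reported. The 5 counts for treatment were 0 in 123 of 127 alternatives, and a count of 0 that stayed 0 is among the 201. Over the labels 0% of all genes were called in the main fit, so an unchanged 0 there says little about histone genes. Leaving out each replicate gave 0 to 5 under FAK1, the 5 without untreated replicate 1. Without the 4 untreated arrays that carry Eif2s3y, chosen after seeing the data, the counts were 13 under FAK1, 1 under FAK5 (H4c12, lower at -0.97, while it was called higher at 1.06 under FAK1) and 13 for the difference between labels. Of all genes, 371 rose and 254 fell under FAK1 and 558 rose and 369 fell under FAK5 in that setting. That setting leaves 1 untreated array under each of these labels, assumed to vary like the other groups. For the difference between labels, the share of all genes called in that setting is not given here. The histone count for that difference therefore cannot be set against other genes. A replicate block was fitted, although pairing by number was not established. It gave 0 calls for each treatment result. For FAK1 against FAK5, FAK7 against FAK5 and FAK7 against FAK1 it gave 31, 34 and 31. Of 1199 alternatives for single genes, 1184 kept direction and side of the threshold and 9 changed sign, all in genes near 0. H1f2 over the labels (-0.01) was 0.0661 without label FAK5, 0.0664 without label FAK7 and between -0.063 and 0.0509 with 1 replicate left out. H1f10 (0.08) was -0.000862 without label FAK1. The adjusted p of H2ac22 over the labels lay between 0.224 and 0.993 over its alternatives. Signal over background limits 10 of the 41 tested genes, which were not detected on every array. Single untreated arrays moved the median under FAK1 from 0.47 to between 0.18 and 0.77, and 17 genes had several detected probes, which did not always share a sign.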
